A study of Mus musculus with 9 samples.

Results

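The genes described here form the insulin-like growth factor (IGF) axis of the stimulated mouse ovary: 10 genes of the 54838 in the table, taken by symbol and read over all 9 libraries. They are the ligand gene Igf1, its receptor gene Igf1r, the binding protein genes Igfbp2, Igfbp3, Igfbp4, Igfbp5, Igfbp6 and Igfbp7, the protease gene Pappa and the adaptor gene Irs1. Total RNA of adult ovaries was sequenced on an Illumina NextSeq 40 h after pregnant mare serum gonadotropin (PMSG), a hormone that acts on the receptor for follicle-stimulating hormone and drives follicles to grow. There are 3 groups of 3 libraries. DKO_TG is labelled as a double knockout of the liver X receptors (LXR) that carries a transgene named TG-AMH-LXRb, DKO as the same double knockout without it, and WT as wild type. All 3 groups received PMSG, and the age is given only as adult. The labels state neither the promoter and sequence of the transgene nor whether each library came from its own animal, so p-values speak only of the scatter among these samples, part of which may be technical.

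IGF1 binds a receptor tyrosine kinase, which phosphorylates adaptors such as IRS1 and passes the signal to PI3K and AKT. IGF binding proteins hold the ligand in the extracellular fluid, and proteases such as PAPP-A cut some of them and release it. In the ovary, IGF1 acts with follicle-stimulating hormone on granulosa cells, the cells that surround the oocyte and make estrogen.

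Levels are in RPKM, reads per kilobase of exon scaled to the size of the library by the authors, so levels of different genes can be compared per length. The libraries held 40.1 to 47.6 M reads in DKO_TG, 46.1 to 59.4 M in DKO and 48.6 to 57.7 M in WT, and the members were read from 388 times (Irs1) to 36282 times (Igfbp4) in a library. The targeted gene Nr1h3 (LXRa) was at 0.538 to 0.824 RPKM in DKO_TG, 0.590 to 1.11 RPKM in DKO, and 4.12 to 5.47 RPKM in WT, and Nr1h2 (LXRb) was at 5.14 to 5.96 RPKM in DKO_TG, 5.79 to 7.79 RPKM in DKO, and 15.2 to 22.5 RPKM in WT. Nr1h2 was thus no higher in DKO_TG than in DKO; reads of the transgene need not be counted under it, so the label of the transgene was not checked by these values. The labels do not state which exons were deleted, so these levels show less transcript in the libraries labelled as knockouts and not the loss of both receptors. Granulosa markers (7 genes, summed) reached 1538 to 1857 RPKM in DKO_TG, 1026 to 2036 RPKM in DKO, and 1692 to 2279 RPKM in WT, and no listed marker was at 0 in every library. The WT libraries stood apart: Malat1, a nuclear RNA, was at 246 to 279 RPKM in DKO_TG, 177 to 213 RPKM in DKO, and 1.67 to 11.1 RPKM in WT, and Neat1, another, at 49.3 to 67.2 RPKM in DKO_TG, 41.2 to 65.7 RPKM in DKO, and 0.226 to 0.757 RPKM in WT. This split falls on the genotype, so it cannot be told apart from any difference from WT given here. Among the DKO libraries, replicate 2 stood apart, with the lowest sum of granulosa markers of all 9 libraries and the highest sum of the 7 macrophage markers (1026 and 350.3 RPKM). The 4 theca and interstitial markers summed to 621 to 964 RPKM in DKO_TG, 67.6 to 213 RPKM in DKO, and 169 to 960.1 RPKM in WT. Among the WT libraries replicate 1 stood apart with the highest of these sums, the others holding 169 and 196 RPKM. Most of each sum was Cyp17a1, at 956, 164 and 190 RPKM in WT replicates 1, 2 and 3. The other 3 markers, Insl3, Ptch1 and Gli1, were higher in DKO than in WT (adjusted p under 0.05 in limma), as were 30.8% of all tested genes. Cyp17a1 did not pass there (log2 change -1.57, adjusted p = 0.0715 in limma). In WT replicate 1, Ptch1 (3.60 RPKM) and Gli1 (0.546 RPKM) held the lowest of their 9 values. WT replicate 1 also held the highest sum of the 3 adipocyte markers (28.6 RPKM, the other WT libraries 10.4 and 11.6). The same was true of the 4 surface epithelium markers (37.1 RPKM, the other WT libraries 15.8 and 25.8). The 4 luteal markers (Ptgfr, Lhcgr, Prlr and Akr1c18) spread widely within each group. Their sums in replicates 1, 2 and 3 were 236, 629 and 227 RPKM in DKO_TG, 541, 134 and 87.9 RPKM in DKO, and 168, 386 and 926 RPKM in WT. DKO replicate 2 and WT replicate 1 were thus not the only libraries to stand apart. In limma the 2 tested oviduct markers were higher and the 2 tested adipocyte markers lower in DKO than in WT. The part of the cells behind these lists in the levels of the members was not tested. In such bulk tissue, fewer cells of a type and less RNA per cell cannot be told apart.

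DKO ovaries held less Igfbp2 and Igfbp5 transcript and more Igfbp3 and Irs1 than WT ovaries, while Igf1 and Igf1r did not pass the test as the authors scaled the libraries. DKO_TG ovaries held less Igfbp2, Igfbp4, Igfbp5 and Igfbp6 and more Igfbp3 and Igf1r than WT ovaries. Against DKO, Igfbp6 alone passed, and it was lower in DKO_TG. These results were not equally firm under the 21 alternatives described below. In DKO against WT, Igfbp2 passed in 21, Igfbp5 in 18, Irs1 in 11 and Igfbp3 in 9. In DKO_TG against WT, Igfbp4 and Igfbp6 passed in 21, Igfbp3 in 18, Igfbp2 in 14, Igfbp5 in 12 and Igf1r in 11. Against DKO, Igfbp6 passed in 8. A gene was called when its Benjamini-Hochberg adjusted p over all 18889 tested genes was under 0.05 in limma, fitted to log2(RPKM + 0.5) over all 9 libraries. All 10 members passed the filter on low values.

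These counts are read against how often any gene was called. In DKO against WT, 2 members were higher and 2 lower, 4 of 10 in all, against 56.7% over all tested genes (30.8% higher, 25.9% lower). In DKO_TG against DKO, 1 of 10 was called and it was lower, against 2.23% over all tested genes (0.498% higher, 1.73% lower). In DKO_TG against WT, 2 were higher and 4 lower, against 51.4% over all tested genes (29.1% higher, 22.3% lower). Libraries of the 2 groups did not overlap for 3, 4 and 6 of the 10 members in those comparisons, in that order, against 61.2%, 24.2% and 65.8% of all tested genes. The median log2 change of the members was -0.19, 0.053 and 0.053 in the same order, and that of all tested genes was 0.016, 0.030 and 0.031. In the comparisons with WT the share of members called was near that of all genes, so the counts by themselves are no result about the IGF axis. Each pair of comparisons shares a group of libraries, so their results are not independent of one another.

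**Figure D1:**
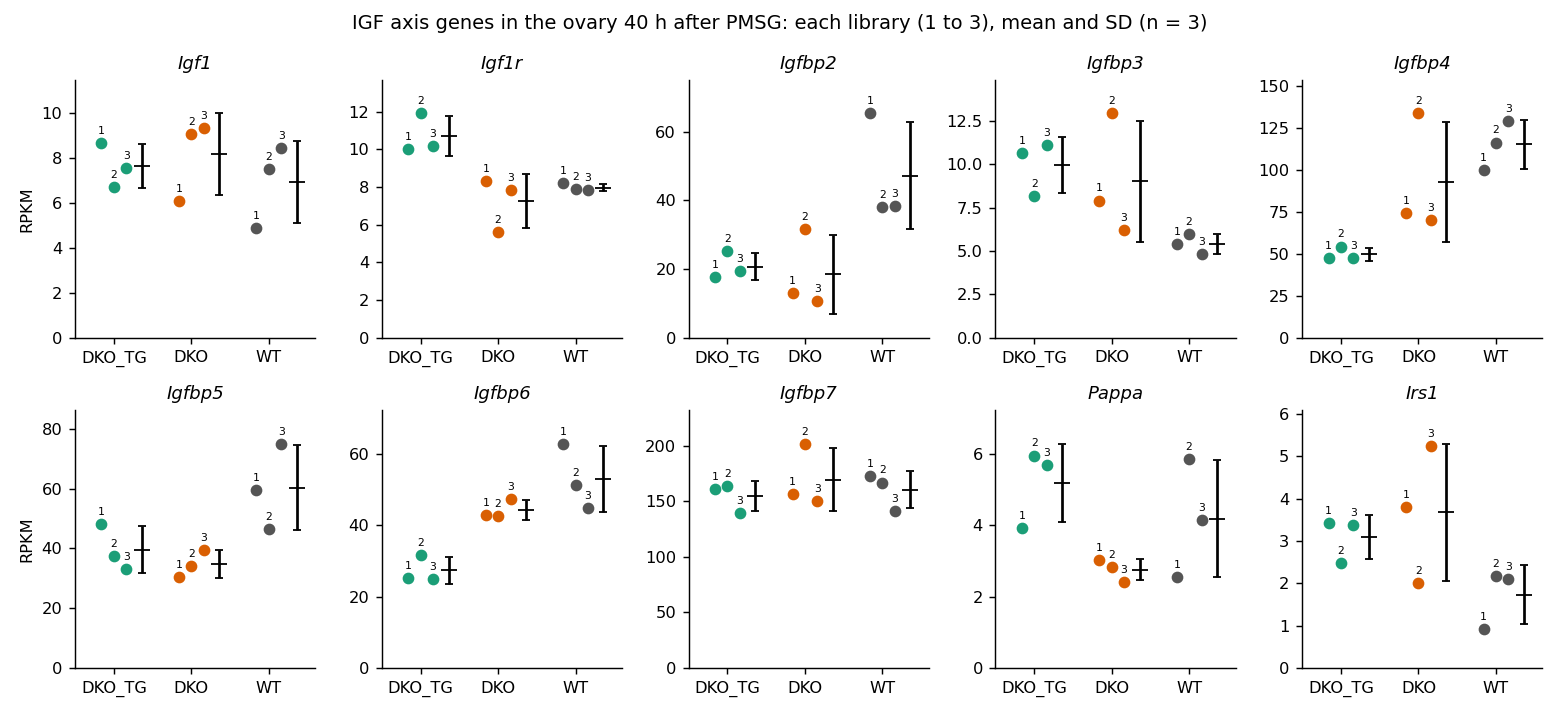
Each panel plots 1 gene in RPKM on a linear axis from 0, with a point for each library (1 to 3) and a bar for the mean and SD (n = 3) of DKO_TG, DKO and WT. Igfbp4 and Igfbp6 are lowest in all 3 DKO_TG libraries, Igfbp2 is highest in the 3 WT libraries, and DKO replicate 2 sits away from the other DKO libraries for Igfbp2, Igfbp3 and Igfbp4.

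Igfbp2 and Igfbp5 are neighbours on chromosome 1 of mm10. Igfbp2 spans 72824503 to 72852474 on the plus strand and Igfbp5 spans 72857932 to 72874884 on the minus strand, so they run toward each other with 5457 bases between their ends. Igfbp4 lies on chromosome 11 at 99041244 to 99054392 (plus strand), and Igf1r on chromosome 7 at 67952827 to 68233668 (plus strand). The promoter windows of these 4 genes are shown because Igfbp2 and Igfbp5 were lower in both knockout groups than in WT, and Igfbp4 was lower and Igf1r higher in DKO_TG than in WT. They are a selection: Igfbp3, called higher in both knockout groups, and Igfbp6, called lower in DKO_TG, would also qualify and are not shown. Each window runs from 250 bases before to 50 after the start given by RefSeq for GRCm38.p6, the assembly of mm10, and capitals mark matches on either strand to the letters searched. The half-site that many nuclear receptors bind was searched as AGGTCA. The box rich in G and C bound by SP factors was searched as GGGCGG. The E-box, which basic helix-loop-helix factors bind, was searched as CACGTG. The TATA box was searched as TATAAA. RefSeq gives Igfbp2 a pair of starts, and the window of the upstream one is shown. The windows are chr1:72824230-72824529 (plus strand), chr1:72874816-72875115 (minus strand), chr11:99040994-99041293 (plus strand) and chr7:67952007-67952306 (plus strand).
Igfbp2: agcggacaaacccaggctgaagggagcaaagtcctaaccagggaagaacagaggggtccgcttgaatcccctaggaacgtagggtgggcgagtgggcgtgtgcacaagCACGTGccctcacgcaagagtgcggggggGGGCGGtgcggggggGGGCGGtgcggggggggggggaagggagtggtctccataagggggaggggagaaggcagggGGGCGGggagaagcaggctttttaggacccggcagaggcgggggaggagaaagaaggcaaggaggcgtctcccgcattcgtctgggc
Igfbp5: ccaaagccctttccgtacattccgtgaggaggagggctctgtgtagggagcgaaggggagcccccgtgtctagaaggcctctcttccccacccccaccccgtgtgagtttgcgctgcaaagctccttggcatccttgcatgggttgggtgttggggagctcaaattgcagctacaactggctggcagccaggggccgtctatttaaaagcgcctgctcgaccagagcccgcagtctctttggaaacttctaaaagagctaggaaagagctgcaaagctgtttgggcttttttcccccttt
Igfbp4: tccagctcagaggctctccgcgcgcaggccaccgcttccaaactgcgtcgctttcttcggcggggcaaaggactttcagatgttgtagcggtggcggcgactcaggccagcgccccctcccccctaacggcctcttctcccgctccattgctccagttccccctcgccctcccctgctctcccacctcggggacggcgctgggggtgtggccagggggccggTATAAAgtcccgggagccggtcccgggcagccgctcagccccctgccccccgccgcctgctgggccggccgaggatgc
Igf1r: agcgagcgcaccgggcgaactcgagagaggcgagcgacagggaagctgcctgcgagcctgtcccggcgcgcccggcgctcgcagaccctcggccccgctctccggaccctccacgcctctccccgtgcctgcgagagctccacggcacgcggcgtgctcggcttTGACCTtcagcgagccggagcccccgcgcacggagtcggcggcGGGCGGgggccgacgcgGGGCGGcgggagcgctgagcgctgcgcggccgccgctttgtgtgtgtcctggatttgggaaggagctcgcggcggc

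The Igfbp2 window shown held GGGCGG at -113, -98 and -37 and CACGTG at -142 from its start, whereas the window of its other start (chr1:72825137-72825436, plus strand) and that of its neighbour Igfbp5 held none of the letters searched. The Igfbp4 window held TATAAA at -28. In the Igf1r window AGGTCA lay on the minus strand at -86, so that the strand shown reads TGACCT, beside GGGCGG at -43 and -26. The half-site was not particular to a called gene: among the windows not shown, that of Igf1, not called as the authors scaled the libraries, held AGGTCA at -161. The Igfbp6 window held TATAAA on the minus strand at -148, and the Igfbp3 window none of the letters searched. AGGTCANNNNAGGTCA, the paired half-sites with 4 bases between them that LXR binds together with RXR and that contain AGGTCA, were in none of the 10 windows of the 9 members with an entry, and in 0.0152% of the 32851 promoter windows of the table. AGGTCA was in 16.3% of all windows, GGGCGG in 35.7%, TATAAA in 13.6% and CACGTG in 7.15%. Each match describes the letters in the window and nothing about binding.

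Igf1 encodes the ligand and lies on chromosome 10 at 87858265 to 87937042 (plus strand). Its level in replicates 1, 2 and 3 was 8.65, 6.71 and 7.55 RPKM in DKO_TG, 6.07, 9.06 and 9.33 RPKM in DKO, and 4.89, 7.48 and 8.41 RPKM in WT. The groups overlapped, and WT replicate 1 held the lowest of the 9 values. The means were 7.64 ± 0.972 RPKM in DKO_TG, 8.16 ± 1.81 RPKM in DKO, and 6.92 ± 1.82 RPKM in WT (SD, n = 3 each). The log2 change was 0.23 ± 0.22 (SE, adjusted p = 0.381) in DKO against WT in limma, with a 95% interval from -0.26 to 0.72. It was -0.072 ± 0.22 (SE, adjusted p = 0.901) in DKO_TG against DKO and 0.16 ± 0.22 (SE, adjusted p = 0.567) in DKO_TG against WT. With TPM, Igf1 was called higher in both knockout groups against WT, at log2 changes of 0.77 in DKO (adjusted p = 0.0267 in limma) and 0.67 in DKO_TG (adjusted p = 0.0471). With TPM the median log2 change of all genes was itself 0.54 and 0.52. Igf1 stood 0.22 and 0.15 above that median, against 0.21 and 0.13 above the median as the authors scaled the libraries. Without WT replicate 1 the log2 changes against WT were 0.015 in DKO and -0.057 in DKO_TG. The other ligand gene, Igf2, was near 0 in every library, with 0, 4 and 4 reads in DKO_TG, 4 in each DKO library, and 24, 10 and 5 in WT; the 0 in DKO_TG replicate 1 allows a level of up to 0.0107 RPKM (3 reads, counting error only). Igf2 shares 3596 of its 5723 exon bases with Gm49394, so even these reads are uncertain.

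Igf1r, the receptor, was at 10.01, 11.9 and 10.2 RPKM in DKO_TG, 8.31, 5.60 and 7.86 RPKM in DKO, and 8.20, 7.87 and 7.85 RPKM in WT in replicates 1, 2 and 3. All 3 DKO_TG libraries lay above all 6 others, and the WT libraries lay within 1.05-fold of one another. The means were 10.7 ± 1.05 RPKM in DKO_TG, 7.26 ± 1.45 RPKM in DKO, and 7.97 ± 0.200 RPKM in WT (SD, n = 3 each). Igf1r was higher in DKO_TG than in WT, by a log2 change of 0.40 ± 0.14 (SE, adjusted p = 0.0393) in limma. Against DKO the log2 change was 0.54 ± 0.14 (SE, adjusted p = 0.0920), so this larger difference was not called, with a 95% interval from 0.23 to 0.86. In DKO against WT it was -0.15 ± 0.14 (SE, adjusted p = 0.391). The call against WT was lost without any 1 of the WT or DKO_TG libraries, most clearly without DKO_TG replicate 2 (log2 change 0.32, adjusted p = 0.129 in limma). It was also lost without a filter, by quantiles and with the length and GC correction (adjusted p up to 0.0773).

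Among the 6 binding proteins, Igfbp2, a carrier of both IGF1 and IGF2, had the largest log2 change from WT in DKO. Its level in replicates 1, 2 and 3 was 17.6, 25.1 and 19.4 RPKM in DKO_TG, 13.0, 31.7 and 10.8 RPKM in DKO, and 65.3, 37.9 and 38.4 RPKM in WT. No DKO_TG or DKO library reached the lowest WT library, and DKO replicate 2 was 2.95-fold above the lowest DKO library. The means were 20.7 ± 3.94 RPKM in DKO_TG, 18.5 ± 11.5 RPKM in DKO, and 47.2 ± 15.7 RPKM in WT (SD, n = 3 each). Igfbp2 was lower in DKO than in WT by a log2 change of -1.44 ± 0.38 (SE, adjusted p = 0.0112) in limma, with a 95% interval from -2.30 to -0.58. Without DKO replicate 2 the log2 change was -1.90 (adjusted p = 0.000722 in limma), without WT replicate 1 it was -1.18 (adjusted p = 0.0434), and the call held under every one of the 21 alternatives tried. In DKO_TG it was lower than in WT by -1.14 ± 0.38 (SE, adjusted p = 0.0330), a call lost without WT replicate 1 or DKO_TG replicate 1 or 3 (adjusted p up to 0.115 in limma). It was also lost without a filter and with TPM (log2 change -0.62), quantile or plain total scaling (adjusted p up to 0.105). The difference between DKO_TG and DKO did not pass, at 0.30 ± 0.38 (SE, adjusted p = 0.745) and a 95% interval from -0.56 to 1.16.

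Igfbp5, which binds to extracellular matrix and is known in rodents from the granulosa cells of follicles in atresia, was at 48.2, 37.3 and 33.2 RPKM in DKO_TG, 30.5, 34.0 and 39.6 RPKM in DKO, and 59.4, 46.5 and 75.0 RPKM in WT. All DKO libraries lay below all WT libraries, while DKO_TG replicate 1 lay just above WT replicate 2. The means were 39.6 ± 7.73 RPKM in DKO_TG, 34.7 ± 4.59 RPKM in DKO, and 60.3 ± 14.3 RPKM in WT (SD, n = 3 each). The log2 change was -0.77 ± 0.20 (SE, adjusted p = 0.00998) in DKO against WT and -0.59 ± 0.20 (SE, adjusted p = 0.0331) in DKO_TG against WT, both lower in limma. DKO_TG against DKO gave 0.18 ± 0.20 (SE, adjusted p = 0.711). The call against WT was lost in both groups when the libraries were rescaled to TPM, by quantiles or to their plain total of reads (in DKO log2 changes of -0.22, -0.31 and -0.46). The call in DKO_TG was also lost without a filter, and without WT replicate 1 or 3 or DKO_TG replicate 2 or 3, with adjusted p up to 0.116 in limma (log2 change -0.48 without DKO_TG replicate 3).

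Igfbp3, the main IGF carrier of the blood, ran the other way from its relatives Igfbp2 and Igfbp5. It lies on chromosome 11 at 7206086 to 7213923 (minus strand) and was at 10.6, 8.15 and 11.1 RPKM in DKO_TG, 7.92, 12.9 and 6.21 RPKM in DKO, and 5.39, 5.99 and 4.81 RPKM in WT in replicates 1, 2 and 3. All 6 knockout libraries lay above all 3 WT libraries. The means were 9.96 ± 1.59 RPKM in DKO_TG, 9.02 ± 3.50 RPKM in DKO, and 5.40 ± 0.589 RPKM in WT (SD, n = 3 each). Igfbp3 was higher in DKO than in WT by a log2 change of 0.63 ± 0.23 (SE, adjusted p = 0.0446) in limma, and higher in DKO_TG than in WT by 0.82 ± 0.23 (SE, adjusted p = 0.0176). Between DKO_TG and DKO it was 0.19 ± 0.23 (SE, adjusted p = 0.745). The call in DKO was lost in 7 of the 9 fits that leave out 1 library, among them that without DKO replicate 2 (0.35, adjusted p = 0.0953 in limma) and that without WT replicate 3 (0.56, adjusted p = 0.118); the others were without WT replicate 1 or 2, DKO replicate 1, or DKO_TG replicate 1 or 3. It was also lost without a filter, by quantiles, with limma-voom on recovered reads and with only the 6 libraries compared (adjusted p up to 0.106). In DKO_TG it was lost without WT replicate 3 or DKO_TG replicate 1 or 3, with adjusted p up to 0.0619 in limma.

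The ratio of Igfbp3 to Igfbp2 within a library does not change when the whole library is multiplied by 1 factor, as with TPM or plain totals. Quantiles and the length and GC correction act gene by gene and can change it. It was 0.605, 0.324 and 0.574 in DKO_TG, 0.607, 0.408 and 0.577 in DKO, and 0.0826, 0.158 and 0.125 in WT. Every knockout library was thus above every WT library, and DKO_TG and DKO overlapped. The ratio was chosen after the values were seen and is given without a test.

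Igfbp4, which in most settings holds IGF1 away from its receptor and is cut by PAPP-A, was the second most abundant of the 6 binding protein transcripts in each group. It was at 47.6, 54.4 and 47.7 RPKM in DKO_TG, 74.4, 134 and 69.97 RPKM in DKO, and 99.9, 116 and 129 RPKM in WT in replicates 1, 2 and 3. The DKO_TG libraries lay within 1.14-fold of one another and below all other libraries, whereas DKO replicate 2 was the highest of all 9. The means were 49.9 ± 3.89 RPKM in DKO_TG, 92.7 ± 35.6 RPKM in DKO, and 115 ± 14.8 RPKM in WT (SD, n = 3 each). Igfbp4 was lower in DKO_TG than in WT by a log2 change of -1.19 ± 0.23 (SE, adjusted p = 0.00271) in limma, with a 95% interval from -1.72 to -0.67, and this call held under all 21 alternatives (adjusted p up to 0.0233). Against DKO the log2 change was -0.83 ± 0.23 (SE, adjusted p = 0.118), which did not pass. In DKO against WT it was -0.37 ± 0.23 (SE, adjusted p = 0.196), and without DKO replicate 2 it was -0.66 and called (adjusted p = 0.00394 in limma); with TPM or quantile rescaling it was above 0.

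Igfbp6, a binding protein with a preference for IGF2, lies on chromosome 15 at 102144362 to 102149511 (plus strand). It was at 25.3, 31.8 and 25.0 RPKM in DKO_TG, 42.8, 42.7 and 47.4 RPKM in DKO, and 62.9, 51.2 and 44.9 RPKM in WT in replicates 1, 2 and 3. All DKO_TG libraries lay below all others, and DKO and WT overlapped. The means were 27.4 ± 3.81 RPKM in DKO_TG, 44.3 ± 2.72 RPKM in DKO, and 53.0 ± 9.16 RPKM in WT (SD, n = 3 each). Igfbp6 was lower in DKO_TG than in WT by a log2 change of -0.94 ± 0.14 (SE, adjusted p = 0.000830) in limma, a call held under all 21 alternatives, and lower in DKO_TG than in DKO by -0.69 ± 0.14 (SE, adjusted p = 0.0477). That last call sits close to the threshold: leaving out any 1 library other than WT replicate 1 ended it, with log2 changes from -0.80 to -0.63 and adjusted p up to 0.188 in limma. It was also lost with a pseudocount of 0.1, without a filter, with a filter at an RPKM of 1 or with only the 6 libraries compared. In DKO against WT the log2 change was -0.24 ± 0.14 (SE, adjusted p = 0.171), with the sign turned under TPM, quantile, plain total and length and GC corrections.

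Marker sums of other cells are given here with the number of their genes called. Of all tested genes, 25.9% were called lower and 30.8% higher in DKO against WT. In DKO_TG 22.3% were called lower against WT and 1.73% lower against DKO. Counts near these shares are no result about the cells. The 5 fibroblast markers (Dcn, Lum, Pdgfra, Col1a1 and Col1a2) summed to 199 to 245 RPKM in DKO_TG, 285 to 324 RPKM in DKO, and 335 to 399 RPKM in WT; 4 of the 5 were lower in DKO_TG than in WT, 1 of 5 was lower in DKO_TG than in DKO, 2 of 5 were lower in DKO than in WT, and none was at 0. The 5 smooth muscle markers summed to 133 to 173 RPKM in DKO_TG, 155 to 265 RPKM in DKO, and 269.9 to 318 RPKM in WT, with 2 of 5 lower in DKO_TG than in WT, 2 of 5 lower in DKO than in WT and none at 0. The 4 surface epithelium markers summed to 3.64 to 10.4 RPKM in DKO_TG, 13.6 to 21.4 RPKM in DKO, and 15.8 to 37.1 RPKM in WT, with 3 of 4 lower in DKO_TG than in WT and none called in the other comparisons. The 5 endothelial markers summed to 51.1 to 62.9 RPKM in DKO_TG, 43.3 to 66.8 RPKM in DKO, and 70.8 to 77.5 RPKM in WT, with 2 of 5 lower in DKO_TG than in WT, 1 of 5 lower in DKO_TG than in DKO, and 3 of 5 lower and 1 higher in DKO than in WT. The 5 erythrocyte genes summed to 198 to 285 RPKM in DKO_TG, 562 to 2409 RPKM in DKO, and 361 to 1657 RPKM in WT, with 3 of 5 lower in DKO_TG than in WT. The 7 macrophage markers summed to 82.0 to 86.7 RPKM in DKO_TG, 172 to 350.3 RPKM in DKO, and 117 to 151 RPKM in WT. These sums were lowest in DKO_TG and highest in DKO, without overlap between groups. In DKO_TG 6 of 7 were lower than in DKO and 3 of 7 lower than in WT. In DKO 6 of 7 were higher than in WT, and none of the 7 was at 0. The part of these cells in the levels of the binding proteins was not tested.

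Igfbp7, which binds insulin and, more weakly, IGFs, had the highest RPKM level of the 10 genes in every group. It lies on chromosome 5 at 77349240 to 77408041 (minus strand) and shares 85 exon bases (7.03%) with Polr2b on the other strand, so a small share of its reads is uncertain. Its level in replicates 1, 2 and 3 was 161, 164 and 139.6 RPKM in DKO_TG, 156, 202 and 150.2 RPKM in DKO, and 173, 167 and 142 RPKM in WT. The groups overlapped throughout. The means were 155 ± 13.3 RPKM in DKO_TG, 169.6 ± 28.3 RPKM in DKO, and 161 ± 16.7 RPKM in WT (SD, n = 3 each), and the log2 changes were 0.071 ± 0.15 (SE, adjusted p = 0.697) in DKO against WT, -0.12 ± 0.15 (SE, adjusted p = 0.732) in DKO_TG against DKO and -0.051 ± 0.15 (SE, adjusted p = 0.789) in DKO_TG against WT. None passed in limma as the authors scaled the libraries; with TPM or quantile rescaling Igfbp7 was called higher in both knockout groups against WT (log2 changes of 0.62 and 0.70 in DKO), and with plain totals in DKO (0.39).

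Some of these scalings move the median of all genes. With TPM the median log2 change of all genes was 0.54 in DKO against WT and 0.52 in DKO_TG against WT, with plain totals of reads it was 0.29 and 0.26, and with quantiles it was -0.057 and -0.065. Relative to that median, Igfbp2 had a log2 change of -1.45 and Igfbp5 one of -0.77 in DKO against WT with TPM, and Igfbp7 one of 0.082. In DKO_TG against WT with TPM, Pappa stood 0.31 and Irs1 0.73 above the median, against 0.29 and 0.70 as the authors scaled the libraries. By quantiles Igfbp7 stood 0.76 above the median of all genes in DKO against WT and 0.61 above it in DKO_TG against WT.

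The share that each binding protein takes of their summed RPKM is unchanged by TPM or plain totals, which multiply a library by 1 factor. It can change with quantiles, and the 6 shares must add to the whole. Igfbp7 took 51.2% ± 0.674 in DKO_TG, 46.2% ± 1.97 in DKO and 36.4% ± 3.40 in WT (SD, n = 3 each), with no overlap between groups. Igfbp4 took 16.5% ± 1.05 in DKO_TG, 24.6% ± 4.11 in DKO and 26.2% ± 4.31 in WT, so DKO and WT overlapped and DKO_TG lay below both. Igfbp3, the smallest share, was 3.33% ± 0.747 in DKO_TG, 2.39% ± 0.458 in DKO and 1.23% ± 0.162 in WT. Igfbp2 took 6.84% ± 1.10 in DKO_TG, 4.76% ± 1.93 in DKO and 10.6% ± 2.96 in WT. Igfbp5 took 13.1% ± 2.14 in DKO_TG, 9.68% ± 2.40 in DKO and 13.7% ± 3.26 in WT. Igfbp6 took 9.05% ± 0.879 in DKO_TG, 12.4% ± 2.74 in DKO and 11.96% ± 1.59 in WT. For these 4 genes the libraries of DKO_TG and DKO overlapped, whereas the Igfbp3 share of every WT library was under that of every knockout library.

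**Figure D2:**
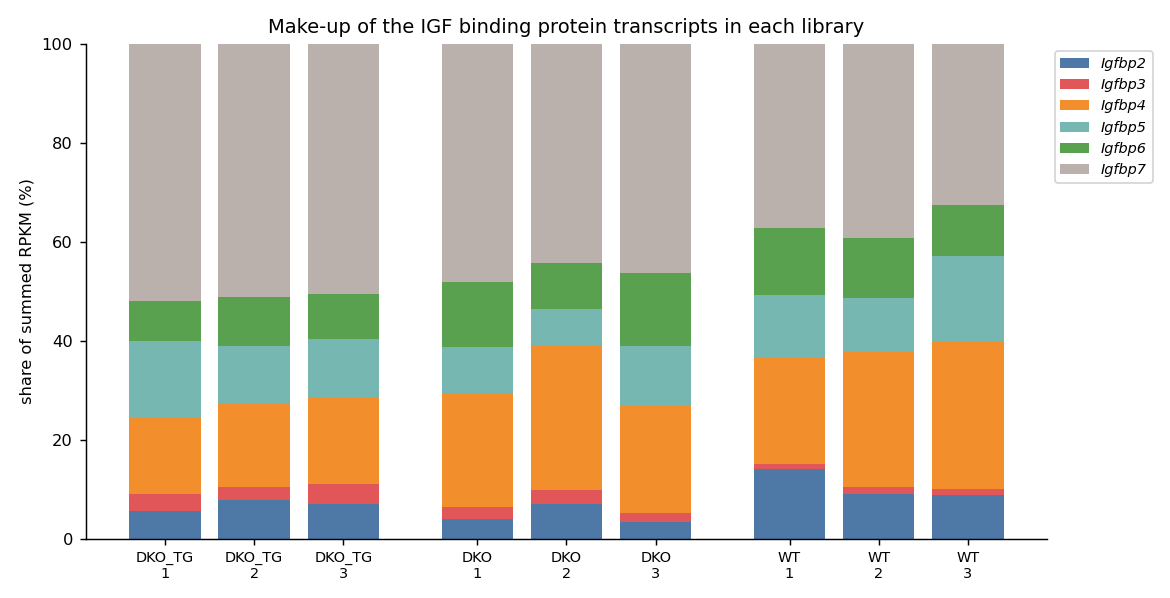
Stacked bars give, for each library of DKO_TG, DKO and WT, the percent of the summed RPKM of the 6 IGF binding protein genes that each gene takes. The grey Igfbp7 segment covers 50.6% to 51.9% in DKO_TG, 44.2% to 48.1% in DKO and 32.6% to 39.3% in WT, and the orange Igfbp4 segment is narrowest in DKO_TG.

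In each group the binding proteins other than Igfbp3 held the 5 highest mean levels of the 10 genes. In DKO_TG the order of mean RPKM was Igfbp7, Igfbp4, Igfbp5, Igfbp6, Igfbp2, Igf1r, Igfbp3, Igf1, Pappa and Irs1, and the neighbours Igfbp4 and Igfbp5, Igfbp6 and Igfbp2, Igf1r and Igfbp3, and Igfbp3 and Igf1 overlapped across libraries. In DKO the order was Igfbp7, Igfbp4, Igfbp6, Igfbp5, Igfbp2, Igfbp3, Igf1, Igf1r, Irs1 and Pappa, and overlaps joined Igfbp5 to Igfbp2, Igfbp2 to Igfbp3, Igfbp3 to Igf1, Igf1 to Igf1r, and Irs1 to Pappa. In WT it was Igfbp7, Igfbp4, Igfbp5, Igfbp6, Igfbp2, Igf1r, Igf1, Igfbp3, Pappa and Irs1, and overlaps joined Igfbp5 to Igfbp6, Igfbp6 to Igfbp2, Igf1r to Igf1, Igf1 to Igfbp3, and Igfbp3 to Pappa. Igfbp7 stood above 99.2% of the protein-coding genes of the table in DKO_TG, 99.3% in DKO and 98.8% in WT. Irs1 stood above 58.3% of them in DKO_TG, 60.9% in DKO and 54.2% in WT.

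Pappa encodes PAPP-A, the metalloprotease that cuts IGFBP4, and in the ovary it is made by granulosa cells. It lies on chromosome 4 at 65124174 to 65357509 (plus strand). Its level in replicates 1, 2 and 3 was 3.92, 5.96 and 5.68 RPKM in DKO_TG, 3.02, 2.83 and 2.42 RPKM in DKO, and 2.56, 5.85 and 4.15 RPKM in WT. All DKO_TG libraries lay above all DKO libraries, and WT, with a 2.29-fold range, overlapped both. The means were 5.19 ± 1.10 RPKM in DKO_TG, 2.76 ± 0.308 RPKM in DKO, and 4.19 ± 1.65 RPKM in WT (SD, n = 3 each). In limma the log2 change was 0.79 ± 0.25 (SE, adjusted p = 0.170) in DKO_TG against DKO, with a 95% interval from 0.22 to 1.36, -0.46 ± 0.25 (SE, adjusted p = 0.143) in DKO against WT and 0.32 ± 0.25 (SE, adjusted p = 0.311) in DKO_TG against WT. None passed as the authors scaled the libraries. Without WT replicate 1, Pappa was called lower in DKO than in WT (log2 change -0.74, adjusted p = 0.0182 in limma), as it was by quantiles (-0.73, adjusted p = 0.0332), and with TPM it was called higher in DKO_TG than in WT (0.83, adjusted p = 0.0487). Beside this, the granulosa markers summed to 1538 to 1857 RPKM in DKO_TG, 1026 to 2036 RPKM in DKO, and 1692 to 2279 RPKM in WT, and none of the 7 was called in DKO_TG against DKO; their part in the level of Pappa was not tested.

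Pappa was also set against its substrate in each library. Pappa RPKM per 1000 RPKM of Igfbp4 was 82.5, 109.6 and 119 in DKO_TG replicates 1, 2 and 3, 40.6, 21.2 and 34.6 in DKO, and 25.6, 50.3 and 32.0 in WT. Every DKO_TG library lay above every library of DKO and WT, which overlapped. The means were 104 ± 19.0 in DKO_TG, 32.1 ± 9.96 in DKO and 35.97 ± 12.8 in WT (SD, n = 3 each). This ratio of transcripts was chosen after the values were seen and has no test, and it says nothing of the activity of the protease.

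**Figure D3:**
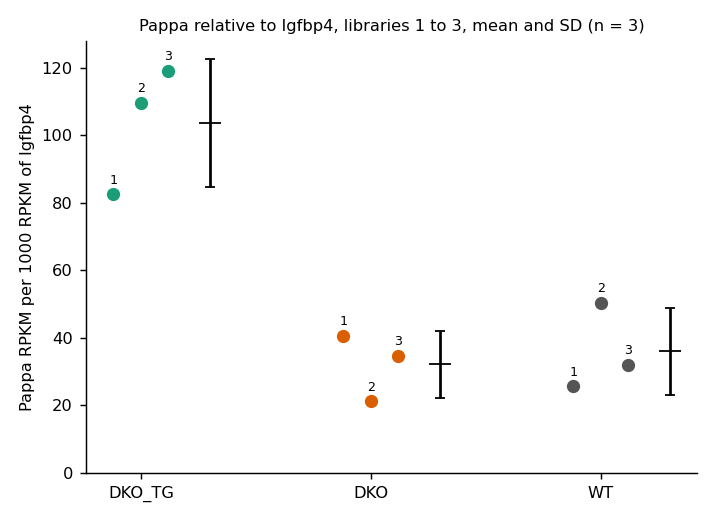
Points give the RPKM of Pappa per 1000 RPKM of Igfbp4 in each library (1 to 3) of DKO_TG, DKO and WT, with the mean and SD (n = 3) beside them, on a linear axis from 0. The DKO_TG libraries lie between 82.5 and 119, and those of DKO and WT between 21.2 and 50.3.

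Irs1, an adaptor that docks on the activated IGF1 and insulin receptors, spread over a 2.62-fold range in DKO and a 2.34-fold range in WT. It lies on chromosome 1 at 82233101 to 82291416 (minus strand), and 2822 of its exon bases (30.9%) are shared with Gm9747 on the other strand. Whether counting used strand is not given in the sources used here, so its reads are uncertain. Its level in replicates 1, 2 and 3 was 3.41, 2.48 and 3.38 RPKM in DKO_TG, 3.81, 2.00 and 5.23 RPKM in DKO, and 0.926, 2.17 and 2.09 RPKM in WT. DKO replicate 2 lay within the WT range, whereas all DKO_TG libraries lay above it. The means were 3.09 ± 0.528 RPKM in DKO_TG, 3.68 ± 1.62 RPKM in DKO, and 1.73 ± 0.695 RPKM in WT (SD, n = 3 each). Irs1 was higher in DKO than in WT by a log2 change of 0.88 ± 0.33 (SE, adjusted p = 0.0461) in limma, and in DKO_TG against WT the log2 change was 0.73 ± 0.33 (SE, adjusted p = 0.0918). Against DKO, DKO_TG had a log2 change of -0.15 ± 0.33 (SE, adjusted p = 0.862). The call in DKO was lost in 7 of the 9 fits that leave out 1 library (all but WT replicate 2 and DKO replicate 2), with adjusted p up to 0.155 in limma and a log2 change of 0.59 without WT replicate 1; without DKO replicate 2 it was 1.21, and Irs1 was then also called in DKO_TG against WT (adjusted p = 0.0426). The call in DKO was also lost without a filter, by quantiles and with only the 6 libraries compared (adjusted p up to 0.184), whereas in DKO_TG against WT Irs1 was called with TPM (adjusted p = 0.0275) and with only the 6 libraries compared (0.0448). The 5 oocyte markers (Zp1, Zp2, Zp3, Gdf9 and Bmp15) summed in replicates 1, 2 and 3 to 55.4, 39.1 and 54.1 RPKM in DKO_TG, 61.1, 25.2 and 54.8 RPKM in DKO, and 11.03, 25.7 and 22.3 RPKM in WT. In limma 5 of 5 were higher in DKO_TG than in WT and 4 of 5 higher in DKO than in WT, against 29.1% and 30.8% of all tested genes. None was called in DKO_TG against DKO. As for Irs1, replicate 2 was the lowest library of DKO_TG and of DKO and replicate 1 the lowest of WT. The sum of the 7 granulosa markers had the same lowest libraries, at 1538, 1026 and 1692 RPKM in that order, so this match is not particular to oocyte markers. The part of oocytes or granulosa cells in the level of Irs1 was not tested.

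**Figure D4:**
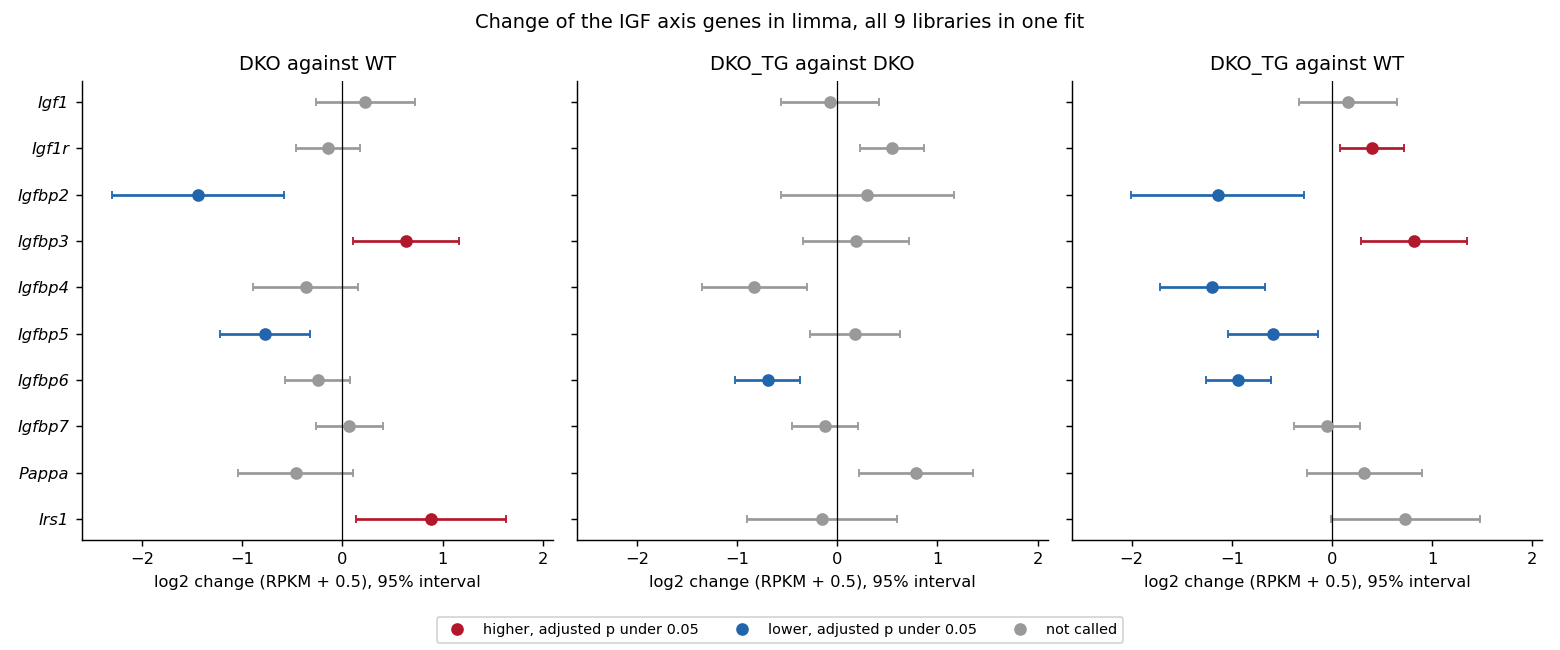
Points give the log2 change of each of the 10 genes, with its 95% interval, in DKO against WT, DKO_TG against DKO and DKO_TG against WT, from 1 limma fit of log2(RPKM + 0.5). Blue marks genes lower and red genes higher with an adjusted p under 0.05; Igfbp2 and Igfbp5 are blue in both comparisons with WT, and Igfbp6 alone is coloured in DKO_TG against DKO.

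Beyond the 10 genes, 42 other genes of the pathway were listed by role, and 34 passed the filter on low values; none of the 4 other ligands and carriers (Igf2, Igfals, Igfbp1 and Igfbpl1) did. In DKO against WT 13 were higher and 6 lower in limma, in DKO_TG against WT 10 were higher and 6 lower, and in DKO_TG against DKO 1 was lower and none higher. At an unadjusted p under 0.05 in limma, 4 of the 34 differed between DKO_TG and DKO, against 2987 of all 18889 tested genes. The shares of all tested genes called in these comparisons, given above for the members, are the background here too. The median log2 change of the 34 genes was 0.14 in DKO against WT, 0.023 in DKO_TG against DKO and 0.055 in DKO_TG against WT.

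Of the receptors, Insr, the insulin receptor gene, was higher in DKO than in WT, at 12.1, 11.4 and 11.9 RPKM in DKO_TG, 10.6, 9.84 and 9.88 RPKM in DKO, and 7.45, 7.30 and 7.85 RPKM in WT (log2 change of DKO against WT 0.40 ± 0.072 (SE, adjusted p = 0.00182) in limma). It was also higher in DKO_TG than in WT, by 0.61 ± 0.072 (SE, adjusted p = 0.000207). Igf2r, which clears IGF2 from the cell surface, had a log2 change of 0.12 ± 0.12 (SE, adjusted p = 0.417) in DKO against WT, and was called higher there with TPM (0.66) and plain totals (0.43). Relative to the median of all genes, Igf2r stood at 0.12 with TPM and 0.13 with plain totals, against 0.11 as the authors scaled the libraries.

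Inhibitors of PAPP-A were among the genes with the largest changes. Stc1, whose product stanniocalcin-1 inhibits PAPP-A, was at 5.75, 7.67 and 9.16 RPKM in DKO_TG, 14.6, 10.2 and 7.76 RPKM in DKO, and 1.78, 4.43 and 4.86 RPKM in WT. Every knockout library was above every WT library, and the log2 change was 1.49 ± 0.34 (SE, adjusted p = 0.00615) in DKO against WT and 1.01 ± 0.34 (SE, adjusted p = 0.0360) in DKO_TG against WT, both higher in limma. The Stc1 call in DKO_TG was lost without WT replicate 1 (0.62) or DKO_TG replicate 2 or 3 (adjusted p up to 0.113), without a filter, by quantiles and with the length and GC correction. Stc2, the second stanniocalcin, had log2 changes of 0.37 ± 0.13 (SE, adjusted p = 0.0398) and 0.52 ± 0.13 (SE, adjusted p = 0.0110), also higher; the first of these calls was lost without any 1 WT library, DKO replicate 2 or 3, or DKO_TG replicate 3 (adjusted p up to 0.107), without a filter, and with only the 6 libraries compared. By quantiles both calls were lost, at log2 changes of 0.023 (adjusted p = 0.906) and 0.20 (adjusted p = 0.269). Htra3, a serine protease, was the gene of this role with the smallest adjusted p in DKO_TG against DKO, at a log2 change of -0.51 ± 0.12 (SE, adjusted p = 0.0779), and did not pass. Stc1 shares 229 exon bases with the antisense gene Gm41192 and is uncertain.

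Of the 7 adaptors on this list, 1 gained a call upward and 1 downward for DKO against WT. Over all tested genes 56.7% were called there, and the downward call depended on the scaling. Grb14, which restrains the insulin receptor, was higher in DKO than in WT by a log2 change of 0.43 ± 0.14 (SE, adjusted p = 0.0273) in limma, and Grb2, which links receptors to RAS, was lower by -0.27 ± 0.095 (SE, adjusted p = 0.0379), with the sign of Grb2 turned under TPM, quantile and plain total scaling. The Grb14 call was lost without WT replicate 1 or 2 or DKO replicate 1 or 3 (adjusted p up to 0.0868), with only the 6 libraries compared, and with the length and GC correction (log2 change 0.099, adjusted p = 0.464), and the Grb2 call in 8 of the 9 fits that leave out 1 library, all but DKO replicate 2 (up to 0.111). Irs2, an adaptor related to Irs1, was at 1.33, 1.33 and 1.30 RPKM in DKO_TG, 2.01, 1.75 and 2.06 RPKM in DKO, and 1.54, 1.62 and 1.59 RPKM in WT, with all DKO_TG libraries below all others. It was the only one of the 34 genes called in DKO_TG against DKO, by a log2 change of -0.42 ± 0.087 (SE, adjusted p = 0.0477), and the call was lost without any 1 library other than DKO replicate 2 (adjusted p up to 0.185 in limma). It was also lost with a pseudocount of 0.1, without a filter, with a filter at an RPKM of 1, with TPM (adjusted p = 0.205), plain totals, the length and GC correction or only the 6 libraries compared. Irs2 shares exon bases with a gene on the other strand and is uncertain.

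In the PI3K and AKT branch DKO exceeded WT for 4 of 9 genes and lay below it for 2, counting only those called in limma. Akt1, a kinase at the centre of the branch, was at 50.7, 49.3 and 48.8 RPKM in DKO_TG, 46.3, 46.8 and 49.5 RPKM in DKO, and 76.5, 63.2 and 62.8 RPKM in WT, a log2 change of -0.50 ± 0.098 (SE, adjusted p = 0.00287) in DKO against WT in limma; that call was lost under TPM, where the log2 change was 0.053, and under quantile and plain total scaling. Pdpk1, the kinase that activates AKT, was higher in DKO by 0.46 ± 0.091 (SE, adjusted p = 0.00294).

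Downstream, DKO exceeded WT in calls for 3 of 10 genes and lay below it for 3, against 30.8% higher and 25.9% lower over all tested genes. These counts, too, are by themselves no result. Rictor, the defining subunit of mTOR complex 2, was at 3.04, 3.08 and 2.99 RPKM in DKO_TG, 3.04, 2.38 and 3.14 RPKM in DKO, and 0.665, 1.07 and 1.05 RPKM in WT, and was higher in DKO than in WT by 1.24 ± 0.14 (SE, adjusted p = 0.000149) in limma. Rps6kb1, the S6 kinase that mTOR complex 1 activates, was higher by 0.59 ± 0.071 (SE, adjusted p = 0.000225), and both calls held under all 21 alternatives; Rps6kb1 shares 155 exon bases with Rnft1 on the other strand. Foxo3, a transcription factor that AKT holds out of the nucleus, had a log2 change of -0.20 ± 0.11 (SE, adjusted p = 0.408) in DKO_TG against DKO. Igf2bp2, an RNA-binding protein named for its binding of Igf2 mRNA, was higher in DKO than in WT by 0.45 ± 0.13 (SE, adjusted p = 0.0169), lost without WT replicate 2 (adjusted p = 0.0515 in limma) and by quantiles (log2 change 0.0067, adjusted p = 0.971), and had -0.18 ± 0.13 (SE, adjusted p = 0.545) in DKO_TG against DKO.

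**Figure D5:**
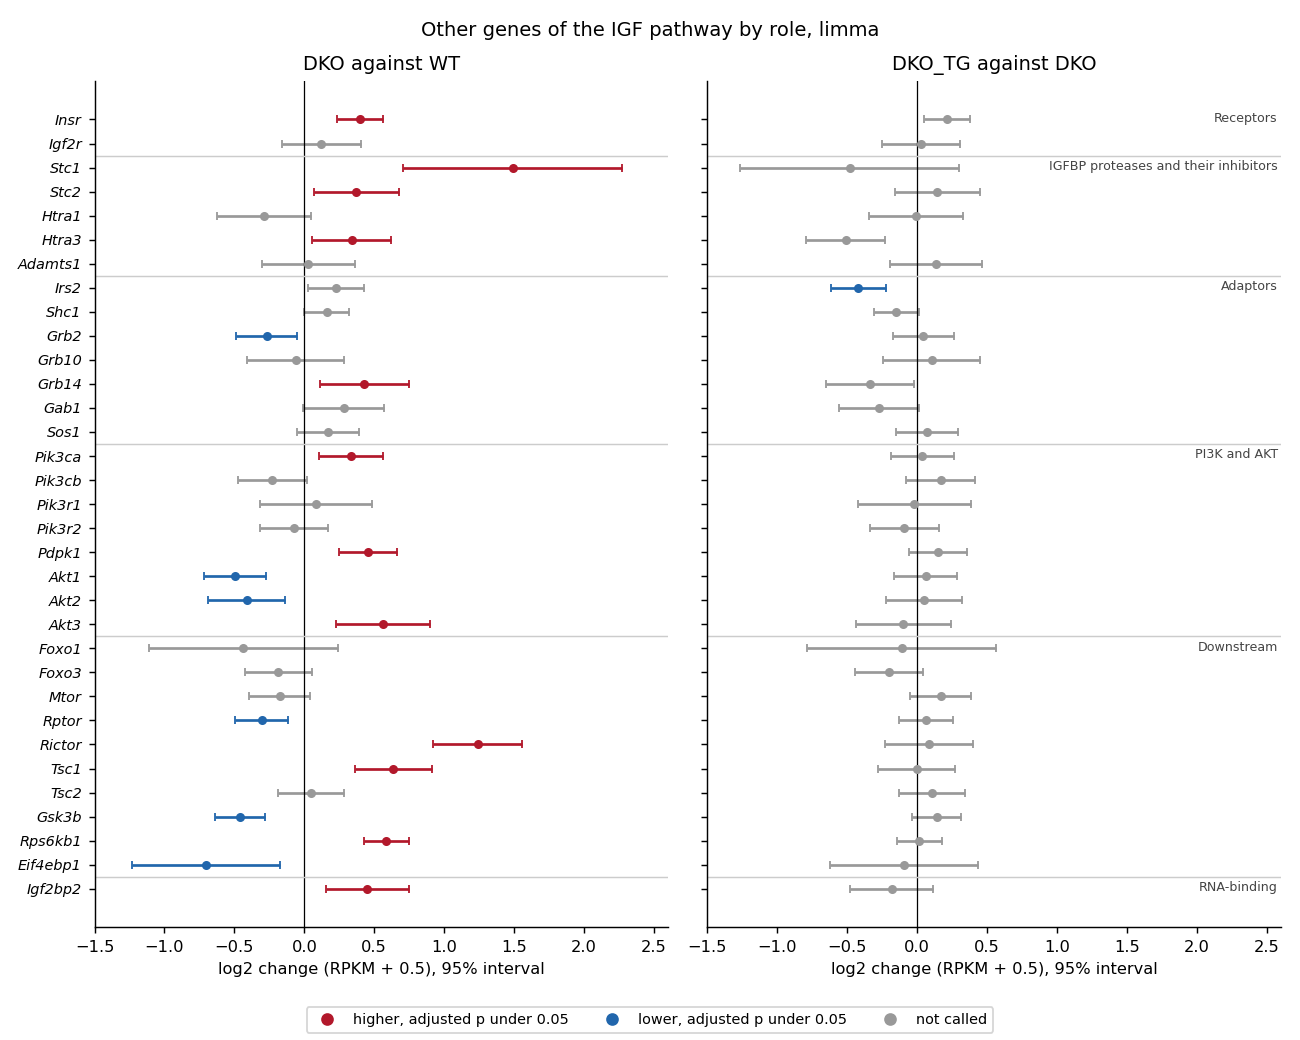
Points give the log2 change, with its 95% interval, of 33 of the 34 tested pathway genes that are not among the 10, grouped by role, for DKO against WT on the left and DKO_TG against DKO on the right (limma, log2(RPKM + 0.5)). Calls in both directions (12 red, 6 blue) stand on the left, with the sign of Grb2 and Akt1 turning under TPM, and Irs2 is the only coloured point on the right.

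Genes with a pattern like that of a member were sought among 11409 protein-coding genes with a mean of at least 1 RPKM, by Pearson's r of log2(RPKM + 0.5) over the 9 libraries. These libraries share their groups and depth, so r is a description only. Nearest to Igf1 were Lrrc2 (r = 0.953), Rap2b (0.936) and Gpsm2 (0.923), and after each genotype's mean was subtracted Trim59 (0.987), Rassf2 (0.978) and Tfdp1 (0.973). Nearest to Igfbp4 were Atp1b1 (0.975), Islr (0.968) and Serpinf1 (0.966), and with genotype means subtracted Anapc15 (0.991), Atp1b1 (0.989) and Lrrc8a (0.987). For Pappa they were Rps6ka2 (0.953), Wars2 (0.924) and Epha3 (0.914), and with genotype means subtracted Zfp931 (0.967), B3galt4 (0.964) and Dnajb12 (0.963). Atp1b1 was near Igfbp4 by both measures, whereas no gene was among the 3 nearest by both for Igf1 or Pappa.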

How the data were processed

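The authors deposited 1 table of RPKM values for 54838 genes, with 1 column for each of 9 libraries. Per the submitters' processing notes, reads were handled on mm10 with DESeq2 1.2.8, HTSeq 0.5.4p5, HISAT2 2.1.0 and cutadapt, in no stated order; how RPKM was made, from which annotation, and whether strand was used is not given in the sources used here. The columns of DKO_TG spell the transgene TG-AMBb, the labels TG-AMH-LXRb, and were matched by group and number. Identifiers of 54723 genes matched GENCODE M21, whose exon lengths gave reads: 97.8% of values above 0 came out whole, within 0.01 read or a relative difference of 1e-06. The library size behind RPKM was 1.03 to 1.06 times the total of reads in DKO_TG, 1.04 to 1.11 times in DKO and 0.793 to 0.920 times in WT, which shows that the authors' values include a library rescaling.

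The test was limma 3.58.1 (lmFit, eBayes with trend) in R 4.3.3 on log2(RPKM + 0.5), for the 18889 genes that reached an RPKM of 0.5 in 3 or more libraries, all 9 libraries in 1 fit with genotype as the only term. A fold change on this scale understates that of weakly expressed genes. P-values were adjusted by Benjamini-Hochberg over all tested genes. The members, the pathway list and the markers were chosen with earlier results of these data known. Named pathway genes are, for each role, the 2 with the smallest adjusted p in DKO against WT and the 1 in DKO_TG against DKO; markers and overlapping genes are named outside this rule, and 1 gene that the rule names is counted but not reported here. Promoters came from RefSeq (GRCm38.p6), with 9 of the 10 members matched. Alternatives were pseudocounts of 0.1 and 1, other filters, TPM, quantile, median ratio and plain total scaling, a length and GC correction, limma-voom on recovered reads, a replicate block, fits to the 6 libraries of each comparison, and fits without 1 library.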

Additional observations from a re-analysis of the deposited data

How the results depend on the processing

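Over 1050 repeats of 50 single-gene results under 21 alternatives, 883 kept direction and side of the threshold, 121 lost the call, 14 gained one and 32 changed sign; all called members kept their sign. The count of members called in DKO against WT was 4, and 2 without a filter or with only the 6 libraries compared, and 2 to 4 when 1 library was left out (2 without WT replicate 3, DKO replicate 1 or DKO_TG replicate 1 or 3). In DKO_TG against DKO it was 1, and 0 with a pseudocount of 0.1, without a filter, with a filter at an RPKM of 1, with the replicate block or with 6 libraries, and 0 to 1 when 1 library was left out (0 without any library but WT replicate 1). In DKO_TG against WT it was 6, and 8 with TPM (Igf1, Igfbp7, Pappa and Irs1 gained a call, Igfbp2 and Igfbp5 lost theirs), 3 without a filter, and 2 to 7 when 1 library was left out (2 without DKO_TG replicate 3, and 3 without WT replicate 1 or 3 or DKO_TG replicate 1). Of the other pathway genes, 19 were called in DKO against WT, and 12 with 6 libraries. In DKO_TG against DKO 1 was called, and 0 with a pseudocount of 0.1, without a filter, with a filter at an RPKM of 1, with TPM, plain totals, the length and GC correction, the replicate block or 6 libraries, and 0 to 1 when 1 library was left out (0 without any library but DKO replicate 2). In DKO_TG against WT 16 were called, and 10 with the length and GC correction, and 9 to 17 when 1 library was left out (9 without DKO_TG replicate 3 and 10 without DKO_TG replicate 2). The cause of these shifts was not tested.

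The log2 changes that turned in DKO against WT were those of Igf1 with the length and GC correction (-0.18), Igf1r with TPM (0.38) and plain totals (0.15) and without DKO replicate 2 (-0.25 to 0.019 over the libraries left out), Igfbp4 with TPM (0.18) and quantiles (0.22), Igfbp6 with TPM (0.31), quantiles (0.21), plain totals (0.070) and the length and GC correction (0.041), Igfbp7 without WT replicate 3 or DKO replicate 2 (-0.062 to 0.15), Pappa with TPM (0.015), Igf2r without WT replicate 1 (-0.029 to 0.22), Grb2 with TPM (0.27), quantiles (0.0040) and plain totals (0.040), and Akt1 with TPM (0.053). In DKO_TG against DKO they were those of Igf1 without DKO replicate 2 or 3 or DKO_TG replicate 2 (-0.26 to 0.031), Igfbp3 without DKO replicate 3 (-0.035 to 0.47), Igfbp7 without DKO replicate 2 (-0.20 to 0.010) and Irs1 without DKO replicate 3 (-0.48 to 0.12). In DKO_TG against WT they were those of Igf1 with the length and GC correction (-0.36) and without WT replicate 1 (-0.057 to 0.30), and of Igfbp7 with TPM (0.48), quantiles (0.55), plain totals (0.21), the length and GC correction (0.24) and without WT replicate 1 or DKO_TG replicate 3 (-0.14 to 0.021). Of these, Grb2 and Akt1 were called lower under the authors' scaling. With TPM Grb2 was called higher (adjusted p = 0.0356 in limma), and Igfbp7 in DKO_TG against WT was called higher with TPM and with quantiles. With TPM the split of all called genes in DKO against WT was 11277 higher and 1087 lower, and with plain totals 8354 and 2307, where the authors' scaling gave 5821 and 4889. In DKO_TG against DKO 421 of all genes were called, but 99 with the replicate block, 68 with 6 libraries, and from 34 (without DKO_TG replicate 1 or 3) to 496 when 1 library was left out.

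The values showed no pairing by replicate number. Same-numbered libraries correlated from -0.34 to 0.24 in their deviations from the group means, and 1 of 9 libraries matched best with a library of its own number. With 3 libraries a group this check is weak and cannot exclude a pairing. The block moved the calls of Igfbp3, Stc2 and Grb2 in DKO against WT, Igfbp6 and Irs2 in DKO_TG against DKO, and Igf1r, Igfbp5 and Stc1 in DKO_TG against WT past the threshold (adjusted p from 0.0509 to 0.130). The rescaling, the nuclear RNAs and the genotype fall together in WT, and 3 libraries a group limit what small changes can be seen.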
